A study of Mus musculus with 8 samples.

Results

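Costimulatory and inhibitory receptors set how a T cell answers its antigen, and 9 of their genes were followed here: Pdcd1 (PD-1), Ctla4, Tigit, Lag3, Havcr2 (TIM-3), Btla, Cd200, Icos and Cd28. They were chosen by name as members of this receptor class, and all 9 were among the 14042 genes measured in every library. Pdcd1 stands apart from the other 8, because its protein was one of the markers used to sort the cells.

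Gene expression was measured by RNA sequencing in 8 mouse libraries, 2 in each of 4 groups. TFH KO and TFH WT libraries were made from donor CD4 T cells with CXCR5 and high PD1 on their surface, as T follicular helper (TFH) cells have. They were sorted from spleens of (bxd)F1 hosts on day 7 after transfer of 10000000 CD8-depleted spleen cells of C5aR1-/- (KO) or WT donors. Naive KO and naive WT libraries were made from CD4 T cells sorted as CD62L high and CD44 low, of the same genotypes and run side by side as controls. C5aR1 is a receptor for the complement fragment C5a. The naive cells had not been transferred, so the TFH and naive libraries differ in host and transfer as well as in surface markers, and these cannot be told apart. The labels give no age, sex or number of animals, and do not say whether a group's libraries came from different mice. The p-values measure only the spread between libraries. In naive KO cells sex-linked transcripts (given with the genotype results) show that the libraries are not from the same animal, and in the other groups the spread may be technical.

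A T cell needs a signal through its antigen receptor together with a costimulatory signal, which CD28 gives on binding CD80 or CD86 of an antigen-presenting cell. CTLA-4 competes with CD28 for the same ligands, and ICOS, a relative of CD28, binds ICOS ligand on B cells and is needed for TFH cells to form and persist. PD-1, TIGIT, LAG-3, TIM-3 and BTLA restrain activated T cells, and several of them are kept high on TFH cells or on T cells that have met antigen for long. CD200 is itself a ligand, which signals to CD200R on other cells.

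The genes lie at several places in the mouse genome (GRCm38, GENCODE vM21). Cd28 (chr1:60716800-60773359), Ctla4 (chr1:60887000-60915832) and Icos (chr1:60977927-61000320) follow each other on the plus strand of chromosome 1. Gaps of 113640 bp and 62094 bp separate them, with no other protein-coding gene between. Pdcd1 (chr1:94038305-94052553, minus strand) lies 33037984 bp further along the same chromosome. On chromosome 16, Btla (chr16:45224315-45257670, plus strand) and Cd200 (chr16:45382135-45409053, minus strand) are neighbours, 124464 bp apart with no protein-coding gene between them. Tigit (chr16:43648867-43664146, minus strand) lies 1560168 bp before Btla. Lag3 is at chr6:124904361-124911705 on the minus strand and Havcr2 at chr11:46454935-46481255 on the plus strand. Ctla4 overlaps a processed pseudogene (Rpl18-ps1) and Icos an unclassified transcript (Gm37039), each on the gene's own strand. How the authors' counting treated reads in those overlaps is not given in the sources used here.

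Because several of these genes moved together between TFH and naive cells, the 250 bases before the transcription start are shown for 4 of them. Ctla4 and Cd200 passed the test in both genotypes. Pdcd1 and Tigit each stood at rank 2 of all genes in nearness to the other over the 8 libraries. The sequences are from RefSeq (GRCm38.p6), read 5′ to 3′ on the gene's strand, for chr1:60908775-60909024 (plus), chr16:45409054-45409303 (minus), chr1:94052554-94052803 (minus) and chr16:43664185-43664434 (minus). RefSeq entries were matched for 6 of the 9 genes, and Icos, Lag3 and Cd28 had none. Capitals mark matches to the motifs searched.
Ctla4: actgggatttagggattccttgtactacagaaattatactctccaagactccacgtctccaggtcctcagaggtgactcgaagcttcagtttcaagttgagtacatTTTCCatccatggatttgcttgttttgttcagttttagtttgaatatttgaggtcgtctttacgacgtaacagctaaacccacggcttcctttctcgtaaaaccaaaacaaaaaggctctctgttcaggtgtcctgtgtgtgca
Cd200: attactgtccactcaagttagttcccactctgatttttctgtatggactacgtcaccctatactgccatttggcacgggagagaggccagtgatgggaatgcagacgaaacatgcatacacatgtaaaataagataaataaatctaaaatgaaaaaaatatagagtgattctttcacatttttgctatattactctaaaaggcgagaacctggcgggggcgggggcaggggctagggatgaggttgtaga
Pdcd1: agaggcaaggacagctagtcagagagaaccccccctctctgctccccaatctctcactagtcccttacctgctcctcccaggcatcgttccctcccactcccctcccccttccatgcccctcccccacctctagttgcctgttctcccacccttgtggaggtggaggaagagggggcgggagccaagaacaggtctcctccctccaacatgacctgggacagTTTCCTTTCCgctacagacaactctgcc
Tigit: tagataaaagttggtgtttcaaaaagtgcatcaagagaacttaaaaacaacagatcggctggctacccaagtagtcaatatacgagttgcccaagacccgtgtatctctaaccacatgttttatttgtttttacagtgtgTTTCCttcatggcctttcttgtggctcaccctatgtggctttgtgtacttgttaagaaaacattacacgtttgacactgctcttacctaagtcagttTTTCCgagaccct
The Ctla4 window lies within an intron of a longer GENCODE transcript of the gene, and the RefSeq start of Tigit lies upstream of its GENCODE start.

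The motifs were searched on both strands, and no matches of different motifs overlap; an NFAT core on the opposite strand reads TTTCC. They were the core site of NFAT (GGAAA), which the antigen receptor activates through calcium, and sites of AP-1 (TGANTCA), NR4A receptors (AAAGGTCA) and CREB (TGACGTCA). Pdcd1 and Tigit held 2 NFAT cores each and Ctla4 held 1, while Btla and Cd200 held none of the 4 motifs. GGAAA is short, and 55.6% of the 32851 mouse promoters of this length hold it. Havcr2 held the AP-1 letters once, as do 6.75% of all promoters. NR4A and CREB sites were found in none of the 6 windows, and in 1.34% and 1.55% of all promoters.

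Values are the log2 expression levels that the authors deposited, and a difference of 1 is a 2-fold change. The levels of different genes are not compared, since the values may not be scaled to transcript length. The deposited values had been brought to the same distribution in all 8 libraries, so the sequencing depth of each is unknown. Of the variance among libraries, 67.9% lay along the first principal component, and the 2 libraries of a group correlated across genes at r = 0.983 to 0.990. Differences were tested with limma across all 14042 genes, and a gene is said to have risen or fallen where its Benjamini-Hochberg adjusted p was below 0.05. The standard error (SE) is that of limma, with 4 residual degrees of freedom before moderation. C5ar1 itself was not analysed here, so the genotype was taken from the labels alone.

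All 9 genes had higher group means in TFH than in naive libraries in both genotypes. For 4 genes that were not called, the size or sign in KO cells rested on single libraries. Without naive KO replicate 1 the KO difference was -0.01 for Icos, -0.22 for Havcr2, 0.07 for Pdcd1 and 0.32 for Tigit, and without TFH KO replicate 2 it was -0.10 for Havcr2. Naive KO replicate 1 is also the only library high in Xist (14.61) and low in the Y-linked Ddx3y (5.67). The part of sex in these differences was not tested. In KO cells 3 of the 9 rose (Ctla4, Btla and Cd200), against 9.12% of all genes called higher. In WT cells 4 of the 9 rose (Ctla4, Lag3, Havcr2 and Cd200), against a background of 12.6%. Averaged over both genotypes, 5 of the 9 rose (Ctla4, Lag3, Havcr2, Btla and Cd200), where 18.3% of all genes did so, and none fell. B cell transcripts were highest, among TFH libraries, in replicate 2 of either genotype. With those 2 left out, a lone library remained in each TFH group, and fewer of the 9 and fewer of all genes passed. The KO differences were then 1.91 for Ctla4, 0.55 for Cd200 and 0.31 for Btla. In WT cells they were 2.52 for Ctla4, 3.09 for Lag3, 1.30 for Havcr2 and 1.55 for Cd200. The median difference of the 9 genes was 0.63 in KO and 1.36 in WT cells, beside -0.01 and 0.01 over all genes. In 6 of the 9 genes (Ctla4, Tigit, Lag3, Btla, Cd200 and Cd28) every TFH library lay above every naive library, which held for 18.2% of all genes.

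**Figure D1:**
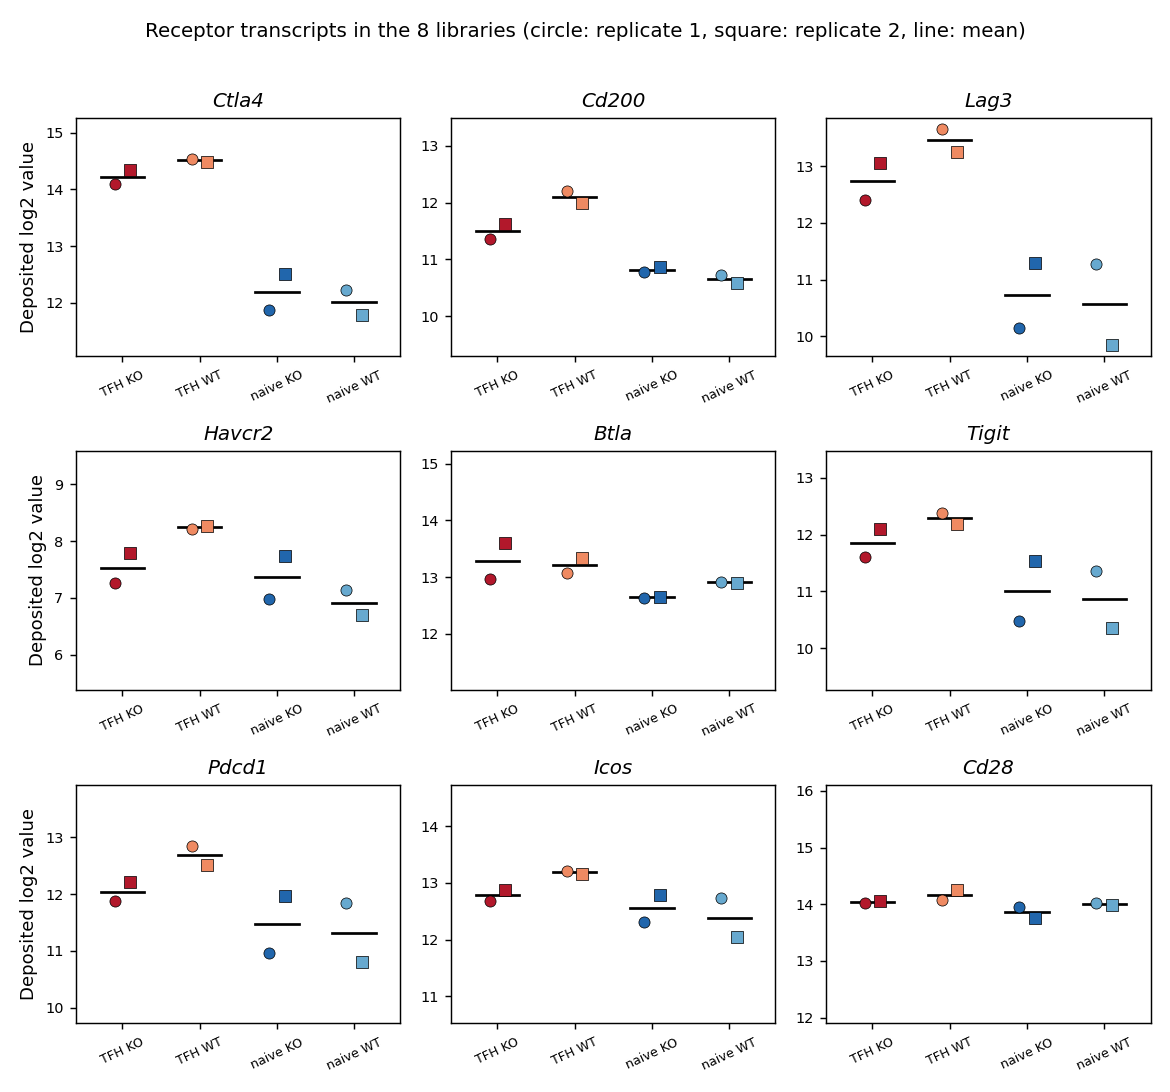
Deposited log2 level of each of the 9 genes (vertical axis, centred on each gene) in each library, with TFH KO, TFH WT, naive KO and naive WT from left to right; circles are replicate 1, squares replicate 2 and lines group means. Ctla4 stands at 14.10 to 14.53 in TFH and 11.80 to 12.50 in naive libraries, while the groups of Pdcd1, Icos and Havcr2 overlap.

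Of the inhibitory receptors, Ctla4 had the smallest adjusted p in both genotypes. Its log2 level was 14.10 and 14.34 in TFH KO libraries, against 11.88 and 12.50 in naive KO libraries. In TFH WT libraries it was 14.53 and 14.49, against 12.24 and 11.80 in naive WT libraries. The 4 TFH libraries lay close together and well above all 4 naive libraries. The difference was 2.03 ± 0.23 (SE) in KO cells, a 4.08-fold rise with a limma adjusted p of 0.0011. In WT cells it was 2.50 ± 0.23, a 5.64-fold rise with an adjusted p of 0.000341. An exact two-sided permutation test of the 4 TFH against the 4 naive libraries gave p = 0.0286, the smallest it can give.

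Lag3, whose product binds MHC class II, had the widest spread of the 9 among naive libraries. Its level was 12.40 and 13.07 in TFH KO libraries, against 10.16 and 11.30 in naive KO libraries. TFH WT libraries stood at 13.66 and 13.26, against 11.28 and 9.85 in naive WT libraries. The groups did not overlap, but the naive libraries of 1 genotype differed by more than a log2 unit in both genotypes. The difference was 2.89 ± 0.68 in WT cells, a 7.42-fold rise with an adjusted p of 0.046. In KO cells it was 2.005 ± 0.68 with an adjusted p of 0.131, so a rise was called in WT and not in KO cells. With 1 library left out the adjusted p in WT cells was above 0.05 in 7 of 8 cases, at 0.0601 to 0.19, and 0.0394 without naive WT replicate 1. The averaged difference passed in 10 of 17 settings.

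Havcr2 encodes TIM-3, known from chronically stimulated T cells and from myeloid cells. Its level was 7.27 and 7.79 in TFH KO libraries, against 6.98 and 7.74 in naive KO libraries. The TFH WT libraries had 8.21 and 8.27, against 7.13 and 6.70 in naive WT libraries. The WT groups were apart and the KO groups overlapped. The difference was 1.33 ± 0.28 in WT cells, a 2.51-fold rise with a limma adjusted p of 0.0059, and 0.17 ± 0.28 in KO cells with an adjusted p of 0.739. Without naive WT replicate 2 the WT difference was 1.11 with an adjusted p of 0.0569. With the myeloid marker mean of each library as a covariate it was 1.94 with an adjusted p of 0.0117. That covariate was -1.82 to -0.01 in TFH libraries and 0.44 to 1.93 in naive libraries, so it can hardly be separated from the label. The part of myeloid cells in the Havcr2 difference was not tested.

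Btla encodes a receptor for the TNF receptor family member HVEM. Its level was 12.96 and 13.60 in TFH KO libraries, against 12.64 and 12.65 in naive KO libraries. For TFH WT libraries the values were 13.08 and 13.34, against 12.92 and 12.90 in naive WT libraries. Both TFH replicate 2 libraries, which also held the highest B cell transcripts of the TFH libraries, had the higher Btla value of their group. The difference was 0.63 ± 0.19 in KO cells, a 1.55-fold rise with an adjusted p of 0.0479, and 0.30 ± 0.19 in WT cells with an adjusted p of 0.284. The KO rise was called in 6 of 18 alternative settings, with adjusted p of 0.00106 to 0.197. Without replicate 2 of both TFH groups the KO difference was 0.31 with an adjusted p of 0.188. B cells also express Btla, and with the B cell marker mean of each library as a covariate the KO difference was 0.64 ± 0.09 with an adjusted p of 0.00106. That covariate was -1.38 and 1.93 in TFH KO libraries, against 0.71 and -0.03 in naive KO libraries. Its group means were thus close, so it could hardly move the KO difference and changed mainly the SE. The part of B cells in the Btla difference was not tested.

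Tigit, which shares its ligand PVR with the activating receptor CD226, had a level of 11.61 and 12.09 in TFH KO libraries, against 10.48 and 11.53 in naive KO libraries. In TFH WT libraries it was 12.38 and 12.19, against 11.36 and 10.36 in naive WT libraries. The highest naive library, at 11.53, came within 0.1 of the lowest TFH library. The difference was 0.84 ± 0.52 in KO cells and 1.43 ± 0.52 in WT cells, with limma adjusted p of 0.353 and 0.124, so neither passed the test.

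Pdcd1 had a level of 11.88 and 12.21 in TFH KO libraries, against 10.96 and 11.97 in naive KO libraries. TFH WT libraries stood at 12.85 and 12.52, against 11.84 and 10.80 in naive WT libraries. Although the TFH cells had been sorted for high PD-1 protein, naive KO replicate 2 lay above TFH KO replicate 1. The difference was 0.58 ± 0.51 in KO and 1.36 ± 0.51 in WT cells, with adjusted p of 0.525 and 0.135, and being tied to the sort it is given as a description. Cxcr5, the other sorted marker, had a level of 10.85 to 11.56 in TFH libraries and 11.56 to 12.45 in naive libraries, so its transcript was not higher in the cells sorted for its protein. Cd44, low on the naive cells by the sort, had a level of 11.97 to 12.11 in TFH libraries and 12.53 to 13.04 in naive libraries, again opposite to the sort. Il21, the cytokine most used to mark TFH cells, was at 9.58 to 10.40 in TFH libraries and 7.31 to 8.19 in naive libraries. The transcripts of 2 sort markers thus go against the labels, and the groups are called TFH and naive as labelled.

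Neither costimulatory receptor passed the test in either genotype. Icos had a level of 12.69 and 12.87 in TFH KO libraries, against 12.32 and 12.79 in naive KO libraries. The TFH WT libraries had 13.22 and 13.16, against 12.74 and 12.04 in naive WT libraries. The KO groups overlapped and the WT groups did not. The difference was 0.23 ± 0.25 in KO and 0.80 ± 0.25 in WT cells, with limma adjusted p of 0.607 and 0.0629. Without naive WT replicate 1 the WT difference was 1.15 with an adjusted p of 0.00409. Cd28 had a level of 14.02 and 14.07 in TFH KO libraries, against 13.96 and 13.76 in naive KO libraries. For TFH WT libraries the values were 14.08 and 14.25, against 14.02 and 13.99 in naive WT libraries. Its difference was 0.19 ± 0.11 in KO and 0.16 ± 0.11 in WT cells, with 95% intervals of -0.05 to 0.42 and -0.08 to 0.40, so a change of more than about 1.4-fold lies outside both.

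Cd200, the ligand among the 9, rose in both genotypes. Its level was 11.37 and 11.63 in TFH KO libraries, against 10.77 and 10.87 in naive KO libraries. In TFH WT libraries it was 12.21 and 12.00, against 10.73 and 10.59 in naive WT libraries. The 4 naive libraries lay within 0.3 of each other, and the TFH KO libraries stood between them and the TFH WT libraries. The difference was 0.68 ± 0.12 in KO cells, a 1.60-fold rise with a limma adjusted p of 0.00283. In WT cells it was 1.44 ± 0.12, a 2.72-fold rise with an adjusted p of 1.38e-05. Ctla4 and Cd200 passed the test in both genotypes under all 18 alternative settings tried.

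**Figure D2:**
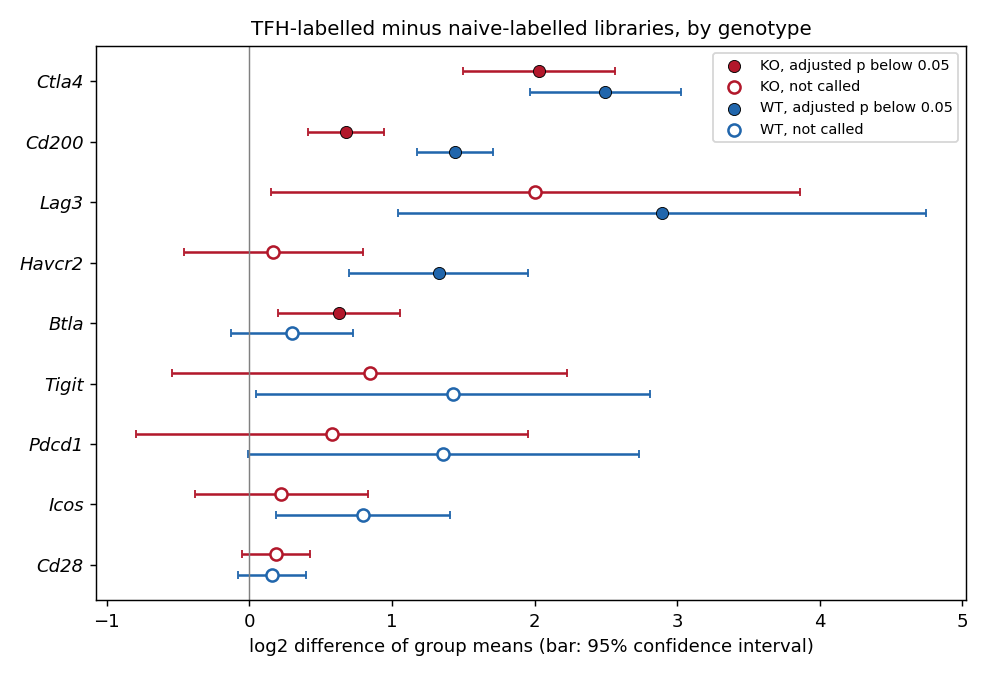
TFH minus naive difference in log2 level for each of the 9 genes within KO and within WT cells, with 95% intervals from limma; filled points passed an adjusted p of 0.05. All 18 differences are above 0, Ctla4 and Cd200 passed in both genotypes, and the intervals of Pdcd1, Tigit and Lag3 are the widest.

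Over all 4 libraries of each label, the averaged difference was 2.45 ± 0.48 for Lag3, 2.26 ± 0.16 for Ctla4, 1.06 ± 0.09 for Cd200, 0.75 ± 0.20 for Havcr2 and 0.47 ± 0.13 for Btla. These 5 passed limma's adjusted test, with p of 0.02, 4.43e-05, 3.94e-06, 0.0126 and 0.0232. Tigit at 1.14 ± 0.37, Pdcd1 at 0.97 ± 0.36, Icos at 0.51 ± 0.18 and Cd28 at 0.17 ± 0.08 had adjusted p of 0.0742, 0.108, 0.0653 and 0.0986. The exact permutation p was 0.0286 for the 6 genes whose groups did not overlap, 0.0571 for Pdcd1 and Havcr2 and 0.0857 for Icos. Without replicate 2 of both TFH groups, which leaves a lone library in each, fewer of the 9 and fewer of all genes passed. Ctla4 and Cd200 were still among those that passed.

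Since CTLA-4 and CD28 share ligands, as TIGIT and CD226 do, receptor levels were also set against each other within a library. A shift common to all genes of a library cancels there, but an effect of normalization that depends on level does not. The level of Ctla4 minus that of Cd28 was 0.08 and 0.27 in TFH KO libraries, against -2.08 and -1.25 in naive KO libraries. TFH WT libraries stood at 0.45 and 0.24, against -1.78 and -2.197 in naive WT libraries. The balance moved by 2.09 towards Ctla4 in TFH libraries (exact permutation p = 0.0286, 4 against 4). The level of Tigit minus that of Cd226 was 0.34 and 1.15 in TFH KO libraries, against -1.02 and -0.05 in naive KO libraries. The TFH WT libraries had 1.52 and 1.31, against -0.33 and -1.33 in naive WT libraries. It moved by 1.76 towards Tigit, with the same exact permutation p of 0.0286. Part of this shift is the fall of Cd226, whose averaged difference was -0.62 ± 0.08. The median averaged difference of the CD8 T and NK markers was -1.22, and the part of such cells in the shift was not tested. For Icos and Pdcd1 against Cd28 the shifts were 0.34 and 0.80, with exact permutation p of 0.229 and 0.114. The 4 ratios and 9 genes were each tested for label and for genotype, making 26 exact tests. After Benjamini-Hochberg adjustment over them, the smallest exact permutation p of 0.0286 became 0.0929, so none of the 26 passed. The genotype tests shuffled TFH and naive libraries together, and had little power where these differ. Pooling them with the label tests raises the adjusted p of the latter, so this outcome depends on the family of tests chosen.

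**Figure D3:**
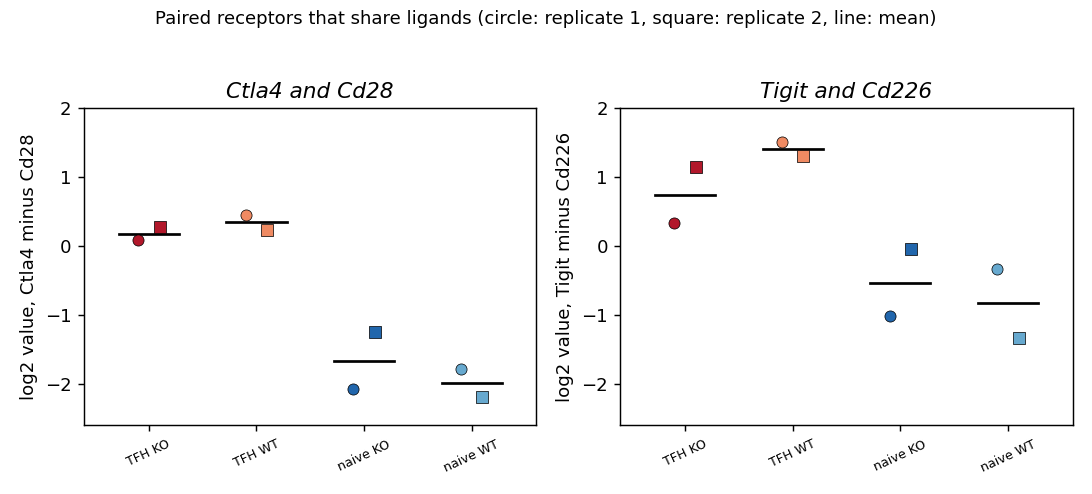
Log2 level of the first gene minus that of the second within each library, for the 2 pairs that share ligands, with TFH KO, TFH WT, naive KO and naive WT from left to right; circles are replicate 1, squares replicate 2 and lines group means. For Ctla4 minus Cd28 the TFH libraries lie at 0.08 to 0.45 and the naive libraries at -2.197 to -1.25; the zero of each scale has no meaning, only the shift between groups.

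The other genes of the pathway were read from 4 lists. Of the ligands and receptor partners, 13 of 16 were measured (Nectin2, Nectin3 and Fgl1 were not analysed here). In the averaged comparison 2 rose and 4 fell, where 18.3% of all genes rose and 19.8% fell. Cd86, the ligand of CD28 and CTLA-4, fell in both genotypes, by a difference of -1.59 ± 0.30 in KO (limma adjusted p = 0.00846) and -2.24 ± 0.30 in WT cells (adjusted p = 0.0013). Fgl2, which encodes a secreted suppressive protein, fell too, with differences of -1.87 ± 0.27 in KO and -2.13 ± 0.27 in WT cells (adjusted p = 0.00202 and 0.000788). Cd200r1, the receptor of CD200, fell in both, with differences of -0.47 ± 0.14 in KO (adjusted p = 0.0326) and -0.78 ± 0.14 in WT cells (adjusted p = 0.00178). Pvr, the ligand of TIGIT and CD226, rose by 0.65 ± 0.10 in KO cells (adjusted p = 0.000918). In WT cells its difference was 0.11 ± 0.10, with an adjusted p of 0.468. Cd86 and Fgl2 are chiefly expressed by antigen-presenting and myeloid cells, and myeloid transcripts moved the same way. The log2 summed level of the 16 myeloid markers was 12.56 to 13.77 in TFH libraries and 13.95 to 15.46 in naive libraries, and 5 of the 16 fell in the averaged comparison. The part of myeloid cells in these differences was not tested, and in bulk samples fewer cells of a type and less RNA per cell cannot be told apart.

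Among the other costimulatory and inhibitory receptors, 23 of 24 were measured, and falls outnumbered rises. In KO cells 1 rose and 8 fell, where 10.4% of all genes fell, and in WT cells 2 rose and 9 fell, where 13.7% did. In the averaged comparison 3 rose and 10 fell, against 18.3% and 19.8% of all genes. The median averaged difference of the list was -0.51. Cd5, a brake on antigen receptor signalling, fell, with differences of -0.54 ± 0.12 in KO (limma adjusted p = 0.00804) and -0.76 ± 0.12 in WT cells (adjusted p = 0.000875). Cd226, the activating partner of TIGIT, fell as well, with -0.43 ± 0.12 in KO (adjusted p = 0.0236) and -0.82 ± 0.12 in WT cells (adjusted p = 0.000515). Cd101, an inhibitory receptor, had differences of -0.66 ± 0.16 in KO (adjusted p = 0.0153) and -1.08 ± 0.16 in WT cells (adjusted p = 0.000706). Cd160, which shares HVEM with BTLA, had differences of -0.86 ± 0.14 in KO (adjusted p = 0.00172) and -0.65 ± 0.14 in WT cells (adjusted p = 0.00642). Tnfrsf25, a costimulatory receptor of the TNF receptor family, fell in both genotypes too, with -0.67 ± 0.16 in KO (adjusted p = 0.0133) and -0.91 ± 0.16 in WT cells (adjusted p = 0.00204). Cd160 is also expressed by NK and CD8 T cells, and 7 of the 12 CD8 T and NK markers fell. Their log2 summed level was 12.32 to 13.17 in TFH libraries and 13.67 to 13.99 in naive libraries, and their part in the result was not tested.

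Of 34 genes of receptor-proximal signalling, 5 rose and 6 fell in the averaged comparison, shares below those of all genes (18.3% and 19.8%). Ptpn11, the phosphatase SHP-2 that PD-1 recruits, rose by 0.69 ± 0.16 in KO (limma adjusted p = 0.0129) and by 1.06 ± 0.16 in WT cells (adjusted p = 0.000898). The adaptor gene Grap2, whose product binds SLP-76 and CD28, fell by 0.64 ± 0.11 in WT cells (adjusted p = 0.00204), and its difference in KO cells was -0.04 ± 0.11 (adjusted p = 0.841). Ubash3a, a negative regulator of antigen receptor signalling, fell by 0.55 ± 0.12 in KO cells (adjusted p = 0.00783), and its difference in WT cells was -0.25 ± 0.12 (adjusted p = 0.146). Dok2, an inhibitory adaptor, rose by 0.49 ± 0.11 in KO (adjusted p = 0.00969) and 0.47 ± 0.11 in WT cells (adjusted p = 0.00973). Sh2d2a, an adaptor that binds Lck, rose by 0.42 ± 0.10 in KO (adjusted p = 0.0129) and 0.46 ± 0.10 in WT cells (adjusted p = 0.00599).

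The list with the most rises was that of 24 transcription factors tied to receptor genes, of which 11 rose and 4 fell in the averaged comparison, beside 18.3% and 19.8% of all genes. Nr4a1, an early target of antigen receptor signalling, rose by 2.66 ± 0.10 in KO (limma adjusted p = 2.02e-08) and 2.45 ± 0.10 in WT cells (adjusted p = 5.13e-08). Its relative Nr4a2 rose by 4.09 ± 0.24 and 3.67 ± 0.24 (adjusted p = 1.1e-06 and 2.86e-06). Junb, a subunit of AP-1, rose by 2.06 ± 0.12 and 2.02 ± 0.12 (adjusted p = 8.01e-07 and 1.06e-06). These 4 lists were drawn up with earlier results of these data known, so their counts describe and do not test the pathway.

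The genotype was then compared within each label. In TFH cells the KO libraries had lower group means than the WT libraries for 8 of the 9 genes, but limma called none of the 9 and none of the 14042 genes (0%). At an unadjusted p below 0.05 there were 2 of the 9 and 506 of all genes. The median of the 9 differences was -0.44, beside 0.00 over all genes. For the 8 genes other than Btla, both TFH KO libraries lay below both TFH WT libraries, which happened in this direction for 16.5% of all genes. With 2 libraries against 2, the smallest exact permutation p is 0.333. The direction was not particular to the receptors, since all 9 TFH markers were also lower in TFH KO libraries (median -0.40). In contrast, 15 of 16 B cell, 15 of 16 myeloid and 12 of 12 CD8 T and NK markers were higher there (medians 0.77, 0.32 and 0.61). None of these markers was called, and the part of other cells in the receptor differences was not tested.

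Cd200 showed the smallest p of the 9 receptor genes. At 11.37 and 11.63 in TFH KO libraries, against 12.21 and 12.00 in TFH WT libraries, it differed by -0.60 ± 0.12, or 0.659-fold, with a 95% interval of -0.87 to -0.33. By unadjusted p it ranked 6 of 14042 genes, and its limma adjusted p was 0.982. Havcr2 differed by -0.71 ± 0.28 with an interval of -1.34 to -0.09, and its adjusted p was 1. Lag3 at -0.72 ± 0.68, Pdcd1 at -0.64 ± 0.51, Tigit at -0.44 ± 0.52, Icos at -0.41 ± 0.25 and Ctla4 at -0.29 ± 0.23 all had intervals that include 0. For Lag3 and Pdcd1 the intervals run from -2.58 to 1.13 and from -2.01 to 0.73, so a fall of several fold lies within both and a rise of several fold within neither. Cd28 at -0.12 ± 0.11 and Btla at 0.07 ± 0.19 had the smallest differences. TFH KO replicate 2 and TFH WT replicate 2 had the highest B cell transcripts of the TFH libraries, and without both of them the difference was -0.84 for Cd200, -0.94 for Havcr2 and -1.26 for Lag3. None of the 9 was called there or in any other setting tried.

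In naive cells none of the 9 was called between genotypes, where 10 of all genes (0.0712%) were. The differences were between -0.26 and 0.45. For 6 of the 9 the KO and WT libraries overlapped. Both naive KO libraries lay above both naive WT libraries for Cd200 (0.16 ± 0.12), as for 15.2% of all genes, and below them for Btla (-0.26 ± 0.19) and Cd28 (-0.15 ± 0.11), as for 11.2%. Sex-linked transcripts separated the naive KO replicates, so sex is mixed into every comparison that uses the naive KO libraries, and its part was not tested. Xist was at 14.61 in naive KO replicate 1 and at 4.44 to 5.56 in the other 7 libraries, and the Y-linked Ddx3y was at 5.67 in that library and at 12.54 to 13.16 in the other 7. For Pdcd1, Icos, Ctla4, Tigit, Lag3 and Havcr2, naive KO replicate 1 and naive WT replicate 2 were the lower library of their group, and the replicates of a group differed by up to 1.43 (Lag3 in naive WT). Averaged over both labels all 9 differences were negative and none was called, against 8 of all genes (0.057%). The exact permutation p of 4 KO against 4 WT libraries was 0.229 for Cd28 and 0.629 to 0.886 for the other 8. This permutation did not hold the TFH or naive label fixed, so the TFH minus naive difference adds to the spread. It could hardly give a small p for a gene where that difference is large, and these p-values say little about genotype.

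**Figure D4:**
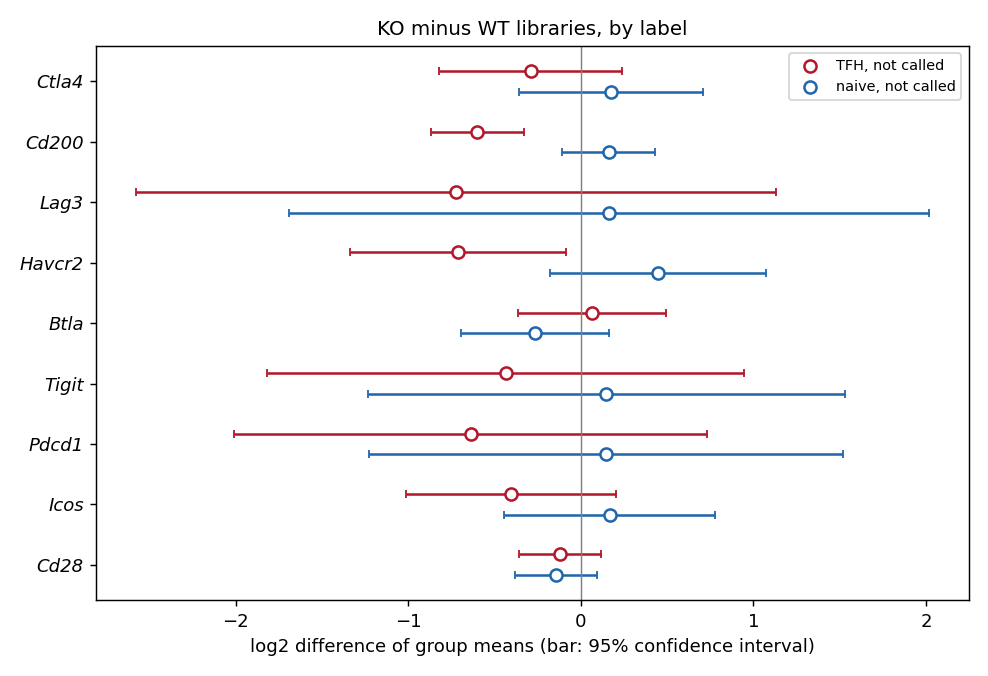
KO minus WT difference in log2 level for each of the 9 genes in TFH and in naive cells, with 95% intervals from limma. In TFH cells 8 of 9 points lie below 0 and in naive cells 7 of 9 lie above 0; no difference passed an adjusted p of 0.05.

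Whether the TFH minus naive difference itself depended on genotype was tested as an interaction. It was negative, that is smaller in KO cells, for 7 of the 9 genes, and called for none of them, against 2 of all genes (0.0142%). The interaction was also negative for all 9 TFH markers (median -0.47), with none called. Among the receptor genes Cd200 had the smallest p, with a KO minus WT difference of the label effects of -0.76 ± 0.17 (limma adjusted p = 0.726, rank 18 of all genes). For Havcr2 it was -1.16 ± 0.40 (adjusted p = 0.997) with a 95% interval of -2.05 to -0.27. The calls of Havcr2 and Lag3 in WT cells and of Btla in KO cells are thus not shown to differ between genotypes. Of the other lists none had a gene called by genotype in either label or in the interaction. The smallest limma p among ligands was that of Pvr in naive cells, at -0.59 ± 0.10 (adjusted p = 0.0689). Among transcription factors in TFH cells it was that of Tox, a regulator of persistently stimulated T cells, at -0.42 ± 0.11 (adjusted p = 1).

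The pattern of each gene over the 8 libraries was set against all others by the root mean square (RMS) difference of values centred on their mean. Pdcd1 and Tigit were each other's second nearest gene of all those measured, at an RMS difference of 0.122 in log2, and Gm14005 was nearest to both (0.116 to Pdcd1 and 0.110 to Tigit). Ctla4 was nearest to Cacna1d (0.0861) and Synpo (0.122), and Cd200 to Psat1 (0.0915) and Ica1l (0.0916). Icos was nearest to Smco4 (0.0961) and Gabarapl1 (0.112), and Havcr2 to Emp1 (0.133) and Kcnk5 (0.140). For Btla the nearest were Proser1 (0.102) and Pml (0.105), and Cd28 was nearest to Scaf8 (0.0526). Lag3 was nearest to Sccpdh (0.212) and Angptl2 (0.299). The nearest of the 9 to Lag3 was Ctla4, at rank 16 of all genes, and to Btla it was Cd28, at rank 1016. Genes that differ little between libraries are near to many others, so these distances rank neighbours of 1 gene and are not compared between genes.

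Markers of other cells varied between libraries of the same group. The median centred log2 level of 16 B cell markers was -1.54 and 2.06 in TFH KO libraries and -1.49 and 0.50 in TFH WT libraries. In naive KO libraries it was 0.77 and 0.03, and in naive WT libraries 0.09 and -0.51. Their log2 summed level was 12.95 to 15.68 in TFH libraries and 13.44 to 14.41 in naive libraries, and none of the 16 was called. The myeloid medians were -1.40 and 0.08 in TFH KO, -1.91 and -0.40 in TFH WT, 0.66 and 0.77 in naive KO and 2.12 and 0.41 in naive WT libraries. The medians of 8 CD4 T cell markers lay between -0.29 and 0.16, and 3 of the 8 fell in KO, 1 in WT and 2 in the averaged comparison, with none higher. Set relative to those markers, an alternative chosen after the values had been seen, all 9 receptor genes passed in the averaged comparison, where part of each difference is the fall of the markers. Foxp3, which defines regulatory T cells that also express Ctla4, Icos and Tigit, was at 12.32 to 12.63 in every library and differed between TFH and naive cells by -0.15 ± 0.11 in both genotypes (limma adjusted p = 0.366 in KO and 0.344 in WT cells). In the averaged comparison 5 of 9 TFH markers rose and 1 fell, 1 of 8 naive T cell markers rose and 3 fell, and 3 of 8 regulatory T cell markers rose and 2 fell. None of the 3 erythroid markers measured was called. The lowest marker of any list, the myeloid Fpr1, was at 2.73 to 3.87 in TFH libraries, and no marker was listed at 0.

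**Figure D5:**
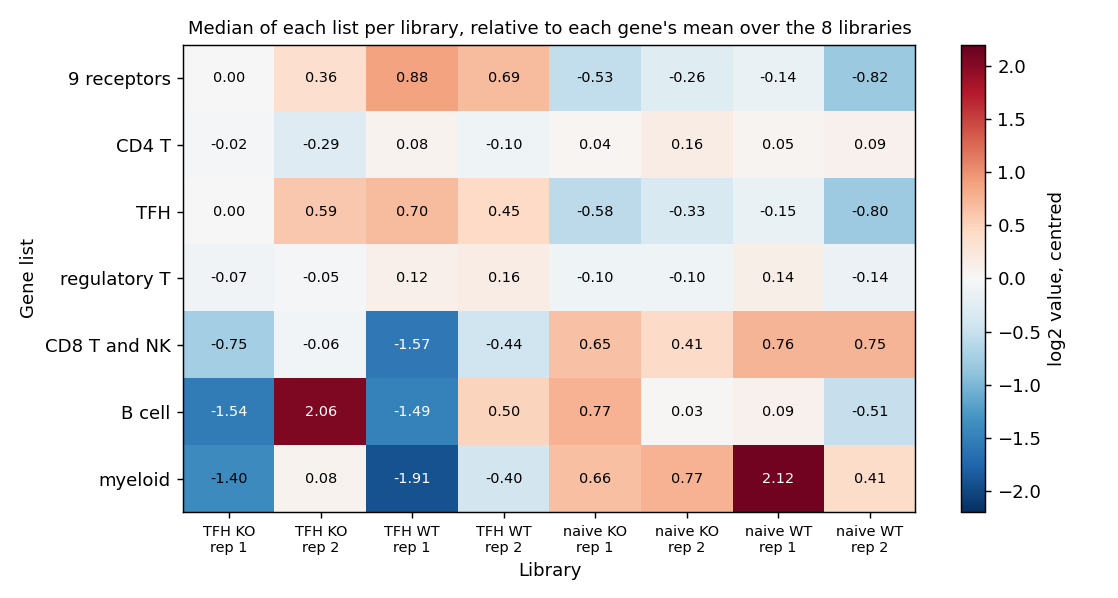
Heat map of the median centred log2 level (colour, printed in each cell) of the 9 receptor genes and of 6 lists of cell type markers (rows) in each of the 8 libraries, with TFH KO, TFH WT, naive KO and naive WT from left to right. The B cell markers of TFH KO replicate 2 stand at 2.06 against -1.54 in replicate 1, while the CD4 T cell markers stay within -0.29 to 0.16.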

How the data were processed

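Total RNA of each sort was sequenced single-end as mRNA libraries, per the labels' protocols. The submitters' processing notes name BWA as a tool and mm10 as the genome build. Not given in the sources used here are BWA's version, the counting tool, its use of strand, the annotation and the normalization. Log2 expression values of 14042 genes were deposited by the authors for every library. The deposited log2 values run from 1.16 to 19.48, and once sorted, no library departs by more than 0.03 from the median library above the lowest percentile, the mark of quantile normalization. Depth is therefore unknown, and no counting interval is given.

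The 8 libraries were grouped by cell type and genotype labels. With limma 3.58.1 in R 4.3.3, a mean per group was fitted to the deposited values of all libraries, with a mean-variance trend and robust moderation, after the code was tested on simulated data. The 7 contrasts were adjusted by Benjamini-Hochberg over all genes, at a threshold of 0.05. Single values were also tested by exact two-sided permutation of all 8 libraries, without holding genotype fixed in the label test or the label fixed in the genotype test. The genes named are the 9 receptors, from each list the 3 called genes with the smallest p (the 2 smallest where none was called), and the 2 nearest genes to each receptor; some of these are not reported here, and markers were used as counts and medians. The receptors and lists were chosen with earlier results of these data known. The alternatives dropped the trend or the robust option, used only the compared groups, a mean of at least 6 in log2, a pseudocount of 64, B cell or myeloid marker means as covariates, library weights, or fewer libraries. Values relative to CD4 T cell markers were added as an alternative after the values had been seen.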

Additional observations from a re-analysis of the deposited data

How the results depend on the processing

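No paired analysis was possible because the labels give no replicate numbers, and those used here only name libraries. Of the values of the 9 genes under 18 alternative settings, 39 lost a call, 24 gained one and 35 uncalled ones changed sign. The cause of each change below was not tested. The count of all genes called in TFH KO minus naive KO was 2744, and 1225 without replicate 2 of both TFH groups. It was 1399 to 2683 with 1 library left out. For TFH WT minus naive WT it was 3694, and 2185 with the myeloid covariate, 2104 without replicate 2 of both TFH groups and 1991 to 3726 with 1 library left out. For the averaged TFH minus naive difference it was 5349, and 3273 with the myeloid covariate (4255 to 4890 with 1 left out). For TFH KO minus TFH WT it was 0, 1 in a fit of those groups only, and 0 to 2 with 1 left out. For naive KO minus naive WT it was 10, 16 with the myeloid covariate, and 7 to 17 with 1 left out. For the averaged KO minus WT difference it was 8, 4 without the trend, 16 with the myeloid covariate, 4 without replicate 2 of both TFH groups, 5 relative to CD4 T cell markers, and 4 to 11 with 1 left out. For the interaction it was 2, 0 without the trend, 4 with the myeloid covariate, 0 relative to CD4 T cell markers, and 1 to 7 with 1 left out. Of the 9 genes, 3 were called in KO cells (2 to 3 with 1 left out). In WT cells 4 were called, 7 without the robust option (Pdcd1, Icos and Tigit added) and 2 to 5 with 1 left out. In the averaged comparison 5 were called, 8 without the robust option, 2 without replicate 2 of both TFH groups, 9 relative to CD4 T cell markers and 3 to 7 with 1 left out. Relative to CD4 T cell markers, 5781 of all genes were called in the averaged comparison. A fit of the compared groups only could not be made for the averaged comparisons and the interaction. With 2 libraries a group, a lone library left in a group is assumed to vary like the others.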
